A study of Homo sapiens with 4 samples.

Results

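The genes described here are 57 genes of the interferon system and of class I antigen presentation, listed by symbol in 5 roles: interferon receptors, the kinases and transcription factors below them, sensors of foreign nucleic acid, interferon-stimulated genes, and the genes that make and load class I molecules. Probe sets were taken where the array's annotation gave 1 of these symbols and no other gene, which found 118 probe sets of 56 genes among 39464 probe sets of 19583 genes. STAT2, the remaining listed gene, was not analysed here. The question was which transcripts differ once ERG is introduced into LNCaP, an androgen-responsive human prostate tumor line, and the cells had received a lentivirus for ERG-RFP (2 arrays, LNCaP-ERG) or for RFP, a red fluorescent protein, alone (2 arrays, LNCaP-vector). Both groups therefore carried a lentivirus, were grown in the same medium and were seeded the day before total RNA was taken, and no array of cells without virus was analysed here. Neither the labels nor the methods tell if arrays of the same group were grown or transduced apart, and the p-values below rest on the scatter of these 4 arrays alone, part or all of which may be technical.

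Interferons are secreted proteins that warn neighbouring cells of infection. Type I interferons bind IFNAR1 and IFNAR2 and interferon gamma binds IFNGR1 and IFNGR2. The receptor-bound kinases JAK1, JAK2 and TYK2 then phosphorylate STAT proteins, which enter the nucleus, for type I interferon together with IRF9, and bind the interferon-stimulated response element (ISRE) or the gamma-activated site (GAS) of target genes. The targets include antiviral effectors such as the IFIT, OAS and MX families and the machinery that cuts proteins, carries the peptides into the endoplasmic reticulum and shows them on class I molecules to cytotoxic T cells. RNA and DNA of viruses can start the same program through RIGI, IFIH1, TLR3 or CGAS. LNCaP cells have been described as lacking JAK1 and as poorly responsive to interferon.

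The shared letters of these genes lie in their promoters, so stretches that carry them are shown before the values. RefSeq windows (GRCh38.p14) from 250 bases before to 50 bases after an annotated start were searched on both strands for the ISRE letters GAAANNGAAA, the GAS letters TTCNNNGAA and the ETS letters CCGGAAGT, the kind of site that ERG and its relatives bind. Of the 56 measured members, 43 had at least 1 window (61 windows in all). The ISRE letters were in windows of 26 of these 43 genes (60.5%), against 1195 of 27305 genes in the table (4.38%). By window this was 49.2% of 61 against 3.57% of 35116. The GAS letters were in 11 of 43 (25.6%), against 9.38% of genes and 7.66% of windows. The ETS letters were in 1 of 43 (2.3%, a JAK1 window), against 4.95% of genes and 4.14% of windows. By role, the ISRE letters were in 15 of 18 interferon-stimulated genes, 9 of 12 class I genes and 2 of 4 sensors (IFIH1 and TLR3), and in none of 6 kinases and factors or 3 receptors. A match describes letters only and is not a shown binding site, and a window without a match does not show that a site is absent. ISRE and GAS matches overlapped in BST2, IFI27, IFITM1 and MX1, and ISRE matches overlapped each other in 6 genes.

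The first 4 stretches belong to interferon-stimulated genes whose signal lay above a log2 intensity of 5.01, a level that few of 29 genes typical of other organs reached, and each is written 5′ to 3′ on the gene's strand with the ISRE letters in capitals. ISG15, a ubiquitin-like modifier, has overlapping matches on chr1:1013369-1013414 (plus strand), IFI6 has 3 matches on chr1:27672261-27672363 (minus strand), IFITM3 has 2 on chr11:320871-320927 (minus strand) and 1 of the OAS3 matches lies on chr12:112938316-112938355 (plus strand).
ISG15: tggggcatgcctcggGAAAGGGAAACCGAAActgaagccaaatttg
IFI6: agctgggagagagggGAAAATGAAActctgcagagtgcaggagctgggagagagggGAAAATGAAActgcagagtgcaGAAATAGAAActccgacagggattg
IFITM3: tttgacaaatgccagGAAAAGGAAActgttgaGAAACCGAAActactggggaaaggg
OAS3: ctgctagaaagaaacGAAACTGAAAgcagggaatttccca

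The next stretches carry the same letters in genes whose signal lay below that level, IFI44L on chr1:78620269-78620308 and IFI27 on chr14:94110613-94110665 (both plus strand), and in IFIT3 on chr10:89327826-89327899 (plus strand), a member with a low unadjusted p. In IFIT3, and in the first match of IFI27, the capitals are the ISRE read on the opposite strand.
IFI44L: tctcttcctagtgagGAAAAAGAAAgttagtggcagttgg
IFI27: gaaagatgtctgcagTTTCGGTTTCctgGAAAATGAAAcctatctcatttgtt
IFIT3: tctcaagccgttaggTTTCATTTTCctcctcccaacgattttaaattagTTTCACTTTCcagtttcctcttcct

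For class I, B2M on chr15:44711358-44711403 (plus strand) and TAP1 on chr6:32853808-32853853 (minus strand, ISRE on the opposite strand) are shown with the ISRE in capitals. The transcription factors IRF1 on chr5:132490874-132490912 (minus strand) and IRF9 on chr14:24161187-24161225 (plus strand) are shown with the GAS letters in capitals, because their probe sets read higher in LNCaP-ERG and their windows held no ISRE letters.
B2M: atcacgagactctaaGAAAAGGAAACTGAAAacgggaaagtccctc
TAP1: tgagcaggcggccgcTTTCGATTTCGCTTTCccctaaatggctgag
IRF1: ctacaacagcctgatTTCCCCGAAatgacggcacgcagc
IRF9: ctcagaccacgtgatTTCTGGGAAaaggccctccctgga

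**Figure D1:**
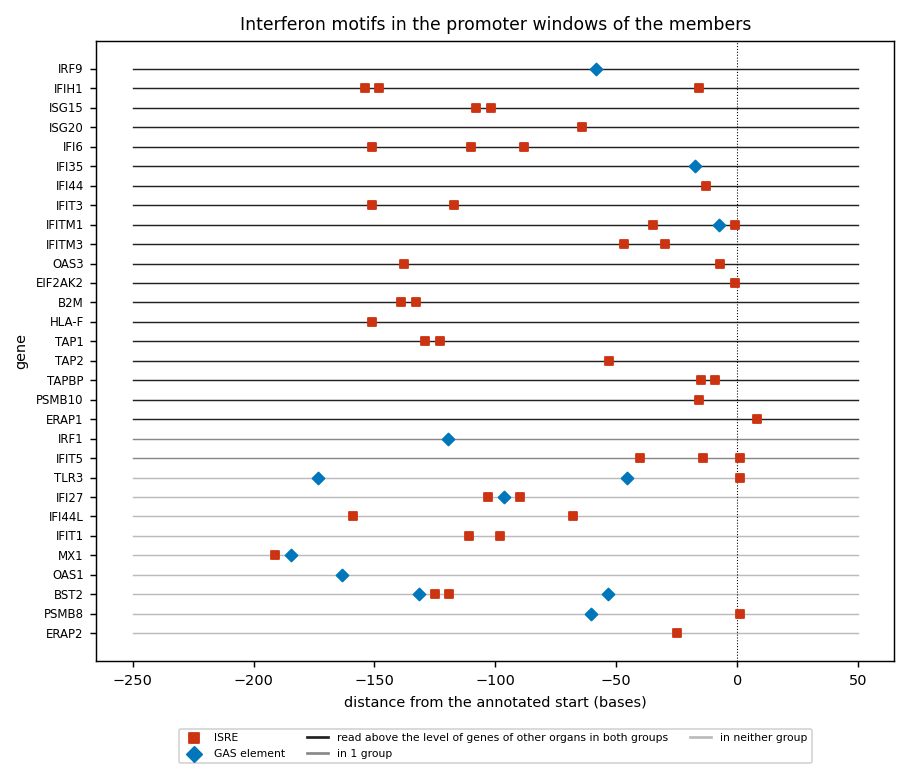
Positions of ISRE matches (red squares) and GAS matches (blue diamonds) along the promoter window of each member that holds any (y axis, 30 genes, 1 window a gene), as distance in bases from the annotated start (x axis). Dark lines are genes read above the level of genes of other organs in both groups, and the palest lines are those below it in both; both kinds hold ISRE matches.

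Values are log2 probe set intensities. A gene is represented by its brightest probe set, and brightness depends on the probes, so levels of different genes are not ranked. As a measure of the signal of genes that these cells are not known to use, 29 genes of other organs were read on the same arrays. The log2 intensity of 5.01 given above is their 95th percentile and is called the organ level below, and 2 of the 29 lay above it in both groups, APOA1 and MBP. All 8 measured prostate epithelial markers lay above it in both groups, none of 9 leukocyte markers did, and 1 of 7 fibroblast markers did (COL1A1, a collagen gene). The summed linear intensity was 24976 to 25149 against 25609 to 26130 in the vector arrays for the prostate list, 79.7 to 80.9 against 77.9 to 87.2 for the leukocyte list, where the groups overlapped, and 487.8 to 521.1 against 397.0 to 408.0 for the fibroblast list. A sum follows its brightest genes, and the genes of each list did not move together. Of the 8 prostate markers, 5 had log2 fold changes above 0 and 3 below (median 0.04). Of the 7 fibroblast markers, 4 were above 0 and 3 below (median 0.01), and the bright COL1A1 had group means of 8.74 against 8.36. The part of the shifts of these sums in the results was not tested. In bulk RNA, fewer cells of a kind and less RNA per cell cannot be told apart. The 4 probe sets of ERG read 2.65 to 3.58 over all arrays, below the organ level in both groups, so ERG does not check the labels, and whether they can read the transduced ERG was not tested.

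No member passed the test between LNCaP-ERG and LNCaP-vector (0 of 56 at an adjusted p under 0.05 from limma, where 2 of 19583 genes, 0.0102%, passed). Without adjustment, at p under 0.05, 4 members were higher, namely IRF1, IRF9, TLR3 and OASL, while IFIT3 and PSMB9 made 2 that were lower. These are 7.14% and 3.57% of the members, beside 5.61% and 4.11% of all genes. By the methods' t-test, unadjusted, 2 members passed as higher and another 2 as lower, 3.57% each beside 4.38% and 3.76% of all genes, and none did after Benjamini-Hochberg adjustment. The lowest adjusted p of a member was 0.37 from limma. The median log2 fold change of the 56 was 0.05, with 32 above 0 and 24 below, against 0.01 over all genes.

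How large a difference the arrays could still hold was read from the 95% intervals. Like the p-values, the intervals rest on the scatter of these arrays alone, part or all of which may be technical. For all 56 members the interval lay within a 2-fold change in either direction, as it did for 99.4% of all genes. The interval reached between 0.19 and 0.46 on the log2 scale to each side of the estimate, with a median of 0.25. For the 17 members at or below the organ level in both groups, an interval bounds the signal and not the RNA, since intensities near background shrink a fold change. Without overlap between the groups, 17 members (30.4%) were higher in both LNCaP-ERG arrays, beside 21.7% of all genes, and 11 (19.6%) were lower, beside 19.1%. Centring the arrays on housekeeping genes, which shifts all genes of an array alike, gave 13 higher and 16 lower. Without the first LNCaP-ERG array the count of higher members was 28, and without the second LNCaP-ERG array or the first vector array the count of lower members was 21 or 18. With a lone array in a group there is less to overlap by construction. The shares of all genes were not counted under these other settings, so the changed counts are not read as a trait of the members.

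**Figure D2:**
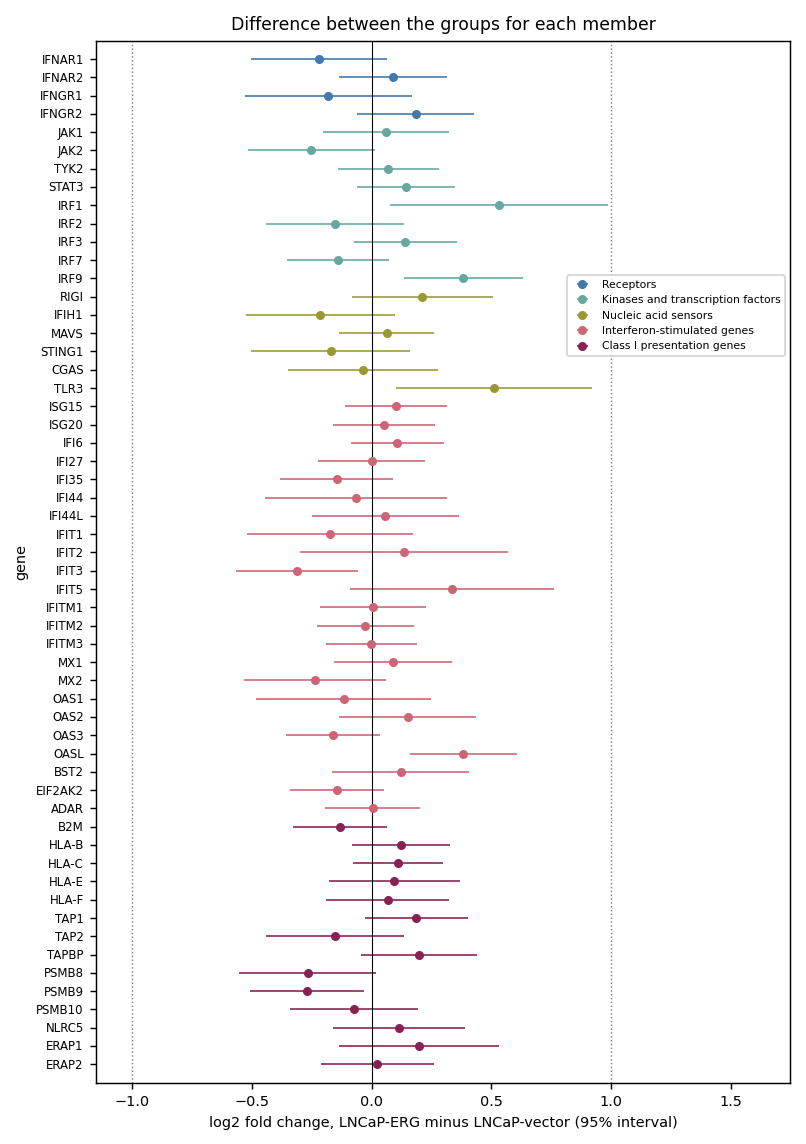
Log2 fold change of LNCaP-ERG over LNCaP-vector (x axis) for each of the 56 measured members (y axis, in the order of their roles, coloured by role). Points are limma estimates from 2 arrays a group, bars are 95% intervals and dotted lines mark a 2-fold change; every bar lies between the dotted lines, and the bars of IRF1, IRF9, TLR3, OASL, IFIT3 and PSMB9 do not reach 0.

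All 4 receptor subunits read above the organ level in both groups, at group means of 6.67 to 8.60. IFNGR2, the signalling subunit of the interferon gamma receptor, read 8.63 and 8.56 in the LNCaP-ERG arrays and 8.32 and 8.51 in the vector arrays. IFNAR1, a subunit of the type I receptor, read 7.52 and 7.70 against 7.73 and 7.93. The 2 genes lay on opposite sides without overlap, IFNGR2 at a log2 fold change of 0.18 (standard error, SE, 0.10, limma's adjusted p = 0.60) and IFNAR1 at -0.22 (SE 0.11, limma's adjusted p = 0.59). Neither passed. The other type I subunit, IFNAR2, read 6.84 and 6.68 against 6.67 and 6.67, a log2 fold change of 0.09 from a probe set whose arrays nearly touched, while its second probe set had -0.17. IFNGR1, the ligand-binding subunit for interferon gamma, overlapped between the groups at 6.79 and 7.13 against 7.05 and 7.23. Of the ligands, all 9 measured interferon genes lay below the organ level in both groups, with a largest log2 fold change of 0.26 for IFNL2, an interferon lambda and the 1 ligand at an unadjusted p under 0.05 (limma's adjusted p = 0.45).

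Among the kinases, JAK1 was read by 6 probe sets. The brightest gave 5.37 and 5.60 in the LNCaP-ERG arrays and 5.40 and 5.46 in the vector arrays, and its groups overlapped (log2 fold change 0.06, 95% interval -0.20 to 0.33). It was the only one of them above the organ level, the others reading 2.54 to 4.41 over all arrays. The brightest of these dim probe sets had a log2 fold change of 0.30 and another had 0.15, both higher without overlap. The rest of the dim ones overlapped. JAK2, which acts beside JAK1 at the interferon gamma receptor, lay below the organ level at 3.81 and 3.81 against 3.94 and 4.18 (log2 fold change -0.25, limma's adjusted p = 0.53). The latent transcription factor STAT3, which many cytokine receptors use, read 10.21 and 10.16 against 10.00 and 10.08 (log2 fold change 0.14, SE 0.08, limma's adjusted p = 0.62).

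IRF9, the DNA-binding partner of the STATs in the type I response, read 5.58 and 5.75 in the LNCaP-ERG arrays and 5.34 and 5.23 in the vector arrays. Both LNCaP-ERG arrays lay above both vector arrays, a 1.30-fold difference (log2 fold change 0.38, SE 0.10, 95% interval 0.13 to 0.63, unadjusted p = 0.010, limma's adjusted p = 0.37). IRF9 has 1 probe set. IRF1, a factor that interferon gamma induces within hours and that drives class I genes, read 5.56 and 5.15 against 4.66 and 4.99. Its groups were also apart, but the arrays within each group were far from each other (SD 0.29 and 0.23, n = 2 in each group), and the log2 fold change was 0.53 (SE 0.18, limma's adjusted p = 0.46). The vector mean of 4.82 was below the organ level, and the second IRF1 probe set had 0.06 with overlapping groups. The mean of both probe sets had 0.30, and the first had 0.32 without the first LNCaP-ERG array. Of the 9 measured kinases and factors, 6 had log2 fold changes above 0 and 3 below (median 0.07), and none passed. IRF3, which the sensors activate, was higher without overlap at 6.67 and 6.60 against 6.56 and 6.44, and IRF7, which amplifies interferon production, was lower at 5.94 and 5.83 against 6.01 and 6.05. TYK2, the other kinase of the type I receptor, and IRF2, an antagonist of IRF1, overlapped between the groups.

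Of the 6 nucleic acid sensors and adaptors, MAVS, RIGI, IFIH1 and CGAS read above the organ level in both groups and STING1 and TLR3 below it. For CGAS this rests on a probe set of the kind marked x, whose probes may also match other transcripts. The other CGAS probe sets had group means of 3.19 against 3.13 and 2.68 against 2.66, so whether CGAS itself was read is uncertain. TLR3, the endosomal receptor for double-stranded RNA, had the largest difference of this role, at 4.28 and 4.65 in the LNCaP-ERG arrays against 4.09 and 3.81 (log2 fold change 0.51, SE 0.16, limma's adjusted p = 0.44). All 4 of these values are below the organ level, so the size is uncertain. Without the second LNCaP-ERG array TLR3 had 0.33, and log2 of intensity plus 16 gave 0.28. RIGI, the cytosolic sensor of viral RNA ends, was also higher without overlap, at 5.58 and 5.68 against 5.28 and 5.56, while IFIH1, CGAS and STING1 overlapped. MAVS, the mitochondrial adaptor of RIGI and IFIH1, read 8.63 and 8.59 against 8.58 and 8.51. Its 4 probe sets disagreed: those at 0.06 and 0.09 were higher without overlap and those at -0.21 and -0.27 were lower without overlap, so no direction is given for it.

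**Figure D3:**
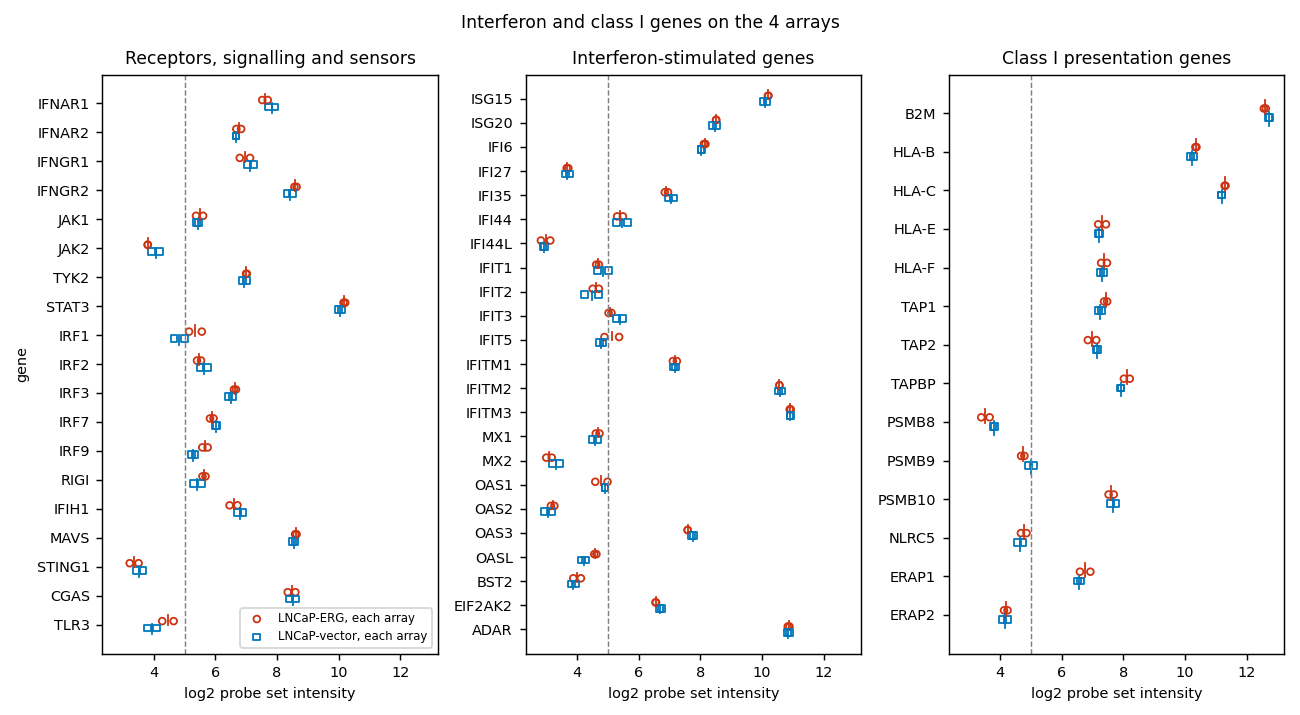
Log2 intensity (x axis) of the probe sets used for the 56 members (y axis) in 3 panels: receptors, signalling genes and sensors, interferon-stimulated genes, and class I genes. Red circles stand for LNCaP-ERG and blue squares for LNCaP-vector, 2 arrays each, with a short line at the mean of a group and a dashed one at the organ level of 5.01; differences between groups are small beside the range of levels.

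Of the 23 interferon-stimulated genes, 12 read above the organ level in both groups, 10 in neither and IFIT5 in 1 group. ISG15 read 10.21 and 10.19 in the LNCaP-ERG arrays and 10.16 and 10.04 in the vector arrays. IFI6, a mitochondrial survival factor, read 8.12 and 8.17 against 8.05 and 8.02. Both were higher without overlap by log2 fold changes of 0.10 (95% interval -0.11 to 0.32) and 0.11 (-0.09 to 0.30). OAS3, which makes the second messenger that activates RNase L, was lower without overlap, at 7.59 and 7.59 against 7.72 and 7.79 (log2 fold change -0.16, limma's adjusted p = 0.57). IFITM3, a membrane protein that blocks virus entry, read 10.93 and 10.90 against 10.92 and 10.91. That is a log2 fold change of -7.0e-04 with a 95% interval of -0.19 to 0.19. Its probe set is of the kind marked x, whose probes may also match related transcripts, here those of its close paralogs IFITM1 and IFITM2. IFI27, IFI44L, MX1, MX2, BST2, IFIT1, IFIT2, OAS1, OAS2 and OASL were the 10 below the organ level, among them genes often used as interferon signatures. The RNA editor ADAR (10.89 and 10.84 against 10.89 and 10.83), the exonuclease ISG20 (8.51 and 8.52 against 8.53 and 8.40), IFITM1, IFITM2 and IFI44 were above it and overlapped between the groups. IFI35 (6.85 and 6.95 against 7.13 and 6.97) and the dim MX2 were lower without overlap. Among the dim genes, a probe set not used for the gene was lower without overlap for OAS1 (-0.33). Such a probe set was higher without overlap for OAS2 (0.14) and OASL (0.18).

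The largest estimates of this role in either direction came from genes near or below the organ level. OASL, a relative of the OAS enzymes that promotes RIGI signalling, read 4.56 and 4.63 in the LNCaP-ERG arrays and 4.15 and 4.29 in the vector arrays. The groups were apart (log2 fold change 0.38, SE 0.09, unadjusted p = 0.0068, limma's adjusted p = 0.37), and its second probe set was also higher without overlap (0.18). IFIT3, which binds viral RNA together with IFIT1, read 5.12 and 5.03 against 5.48 and 5.29, a log2 fold change of -0.31 (SE 0.10, limma's adjusted p = 0.45). Its second, dim probe set had -0.10 with overlapping groups, and the mean of both had -0.21. IFIT5 read 4.89 and 5.37 against 4.75 and 4.85, with a log2 fold change of 0.34 (SE 0.17, limma's adjusted p = 0.58). Its 2 probe sets were apart in opposite directions, the second at -0.25. After a further quantile normalization, where the brightest probe set was chosen again, the value for the gene was -0.24. Without the second LNCaP-ERG array IFIT5 had 0.10. EIF2AK2, the kinase that halts translation on double-stranded RNA, showed the same disagreement: the brighter probe set read 6.57 and 6.55 against 6.73 and 6.67 (log2 fold change -0.15) and the dimmer had 0.14. Over the role, 12 genes were above 0 and 11 below, with a median log2 fold change of 0.00.

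Class I presentation genes were mostly read: 10 of 14 lay above the organ level in both groups. B2M, the invariant light chain of class I, read 12.55 and 12.61 in the LNCaP-ERG arrays and 12.71 and 12.72 in the vector arrays, lower without overlap (log2 fold change -0.13, SE 0.08, limma's adjusted p = 0.63). A second probe set near the same level was also lower without overlap (-0.10), and a dim one overlapped (0.043). The heavy chain genes HLA-B and HLA-C lay on the other side. HLA-B read 10.33 and 10.37 against 10.18 and 10.27, and HLA-C read 11.28 and 11.31 against 11.18 and 11.19. Their log2 fold changes were 0.12 (95% interval -0.08 to 0.33) and 0.11 (-0.08 to 0.30). All probe sets of HLA-B and HLA-C are of the x kind, so the signal of class I genes may be shared among them. Of their other 5 probe sets, 1 of HLA-B was higher without overlap (0.11) and the rest overlapped.

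For peptide supply, the transporter subunit TAP1 read 7.47 and 7.37 against 7.28 and 7.19, and TAPBP, the tapasin that holds the transporter to class I, read 8.20 and 8.01 against 7.92 and 7.90. Both were higher without overlap, at log2 fold changes of 0.19 (limma's adjusted p = 0.56) and 0.20 (limma's adjusted p = 0.57). The other TAPBP probe sets were dim and overlapped between the groups (0.06 and -0.08), and the mean over the TAPBP probe sets had 0.06. The immunoproteasome subunits PSMB8 and PSMB9 were lower in LNCaP-ERG without overlap and lay below the organ level. PSMB10, also a subunit of the immunoproteasome, lay above that level and overlapped between the groups (log2 fold change -0.07). PSMB9 read 4.68 and 4.79 against 4.93 and 5.08, a log2 fold change of -0.27 (SE 0.09, limma's adjusted p = 0.47). PSMB8 read 3.39 and 3.66 against 3.81 and 3.77, also -0.27 (SE 0.11, limma's adjusted p = 0.54). TAP1 and PSMB9 are divergent neighbours whose annotated starts lie 488 bases apart, at 32853704 and 32854192 on chromosome 6 of GRCh38.p14, and their estimates had opposite signs; the difference between them was not tested. The constitutive counterparts PSMB5, PSMB6 and PSMB7 all read above the organ level, with a largest log2 fold change of 0.09 for PSMB6. ERAP2, a peptidase that trims peptides in the endoplasmic reticulum, was dim at 4.13 and 4.24 against 4.09 and 4.23 (log2 fold change 0.02), and its 5 probe sets included 1 higher (0.27) and 1 lower (-0.19) without overlap. ERAP1, its partner, and HLA-E, HLA-F, TAP2 and PSMB10 were above the organ level, and NLRC5, the activator of class I genes, was below it. All 6 overlapped between the groups at the probe set used. For HLA-E and HLA-F that probe set is of the x kind, and the dimmer plain probe set of each was higher without overlap (0.22 and 0.17).

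**Figure D4:**
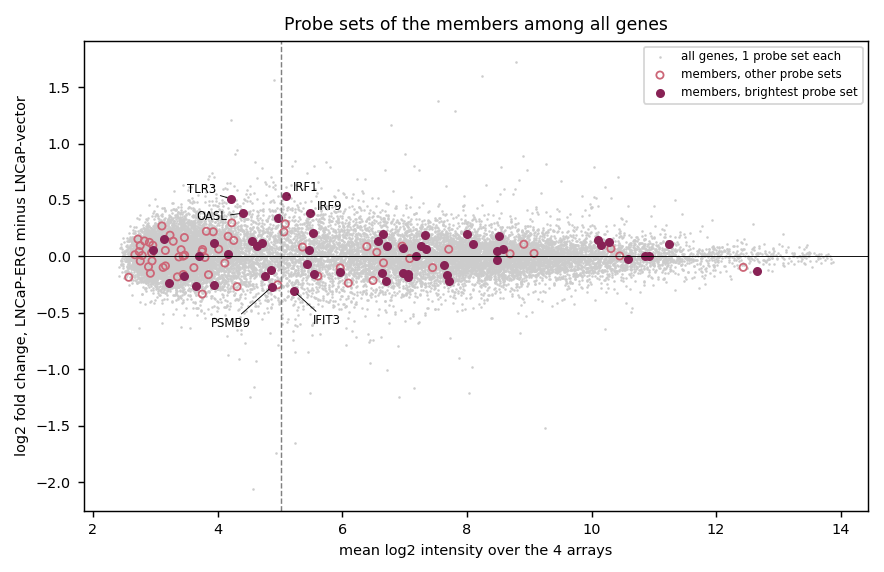
Log2 fold change of LNCaP-ERG over LNCaP-vector (y axis) against the mean log2 intensity over the 4 arrays (x axis). Grey points are all 19583 genes, filled points the brightest probe set of each of the 56 members, open points their other probe sets, and the dashed line is the organ level of 5.01; the 6 labelled members lie near or left of that line, inside the grey cloud.

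Probe sets of 1 gene gave a second view of the same arrays. The probe set used was of the plain kind for 32 members, of the s kind, which may match several transcripts of related genes, for 13, and of the x kind for 11. Of the 31 members with more than 1 probe set, 19 had estimates of both signs, and in 6 (EIF2AK2, ERAP2, IFIT5, IFNAR1, IFNAR2 and MAVS) some probe sets were higher and others lower without overlap. The same was not counted over all genes, so these counts are not read as a trait of the members. IFNAR1 had 0.22 at a dim probe set and -0.22, -0.10 and -0.02 at the others. With all 39464 probe sets tested together, none of the 118 passed, and the lowest adjusted p among them was 0.50 from limma. Over the 118, 69 estimates were above 0 and 49 below.

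Promoter letters and differences were set side by side. Of the 26 members with ISRE letters, 17 read above the organ level in both groups and 8 in neither. Of the 17 members with a window and without them, these counts were 13 and 3. PSMB9 is among the members without them, although the TAP1 stretch printed above lies between the starts of TAP1 and PSMB9. The median log2 fold change was 0.01 with the letters (range -0.31 to 0.51, 6 genes higher and 5 lower without overlap) and 0.06 without them (range -0.27 to 0.53, 8 higher and 4 lower), beside the 21.7% higher and 19.1% lower without overlap among all genes. ISG15 and IFI6, above the organ level, and IFI44L and IFI27, below it, thus carry the same kind of letters in the stretches printed above.

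No other gene of the pathway lists passed either. Of 29 further interferon-stimulated genes, 16 had log2 fold changes above 0 and 13 below (median 0.01), and the list had no test of its own. Without overlap, 9 (31%) were higher and 6 (20.7%) lower, beside 21.7% and 19.1% of all genes. At an unadjusted p under 0.05 from limma, 5 (17.2%) lay higher and 0 lower, beside 5.61% and 4.11% of all genes. The largest of these was UBE2L6, the enzyme that attaches ISG15 to proteins, at 5.88 and 5.72 in the LNCaP-ERG arrays against 5.12 and 4.99, a 1.67-fold difference (log2 fold change 0.74, SE 0.10, limma's adjusted p = 0.22). It passed only where the dimmer genes were left out (limma's adjusted p = 0.040), within a range of 0.040 to 0.59 over the settings that keep all 4 arrays. LGALS3BP, a secreted glycoprotein, read 6.43 and 6.57 against 6.04 and 5.97 (log2 fold change 0.50, limma's adjusted p = 0.29). TRIM22 (0.68), IDO1 (0.37) and XAF1 (0.21), named with LGALS3BP after their values were seen, lay below the organ level in both groups. TRIM22 had 0.38 without the second LNCaP-ERG array, and the mean over the XAF1 probe sets had -0.0061. Of 9 class II genes, 2 lay above the organ level. CIITA, their master activator, did not, and read 3.49 and 3.50 against 3.06 and 3.08 (log2 fold change 0.42, limma's adjusted p = 0.29). The mean over the CIITA probe sets had 0.11, and log2 of intensity plus 16 gave 0.16. The 9 other class I genes comprised loading factors, proteasome activator subunits and subunits of the promoter-binding factor RFX, and all were above the organ level. Without overlap, 5 were higher and none lower (55.6% and 0%, beside 21.7% and 19.1% of all genes). Among all genes above the organ level these shares were 23.8% and 23.7%, and the list of 9 had no test of its own. The largest log2 fold change was 0.21 for PSME1, a subunit of the proteasome activator that interferon gamma induces. The 6 negative regulators had a largest estimate of 0.20 for SOCS3, which was dim, overlapped between the groups and turned sign with plain probe sets (-0.24).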

How the data were processed

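Total RNA of 4 samples, 2 in each group, was hybridised to Affymetrix arrays. The authors analysed the images with dChip, normalized with RMAexpress and annotated with Multiexperiment Viewer; program versions: not given in the sources used here. Deposited were intensities of probe sets on what their range shows to be a linear scale (array medians of 14.0 to 14.4, maxima of 14962 to 15344), and log2 was taken of these deposited values. Arrays have no read depth, and their number limits the precision.

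Of 51965 probe sets, 39466 name 1 gene, 838 several and 11661 none; 2 with a missing value were left out. Entrez identifiers of 39415 matched RefSeq. Each gene used its probe set with the highest mean. The comparison used limma 3.58.1 (lmFit, then eBayes; R 4.3.3; 2 residual and 3.23 prior degrees of freedom), with Benjamini-Hochberg adjustment over 19583 genes and a threshold of 0.05. The fit was tested on simulated data whose changes were far larger than any estimate of the members. That test does not show how often differences of the members' size would be found. Promoters and summaries used Python 3.11.15, pandas 2.3.3, numpy 2.4.6 and matplotlib 3.10.9.

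Members and lists were chosen with earlier results of these data known. Array values are given for 17 members by rule: unadjusted p under 0.05, the brightest and the most different of each role, JAK1, and those whose probe sets disagree without overlap. ISG15, IFI6, HLA-B, HLA-C, TAP1, TAPBP, PSMB8, OAS3, JAK2, IFNGR1, IRF3, IRF7, RIGI, ADAR, ISG20 and IFI35 were added after their values were seen, as were the genes whose promoters are printed. Other pathway genes are named where they head their list, with 4 exceptions stated beside their values. The alternatives tried were a trended, robust eBayes, a fit without genes dimmer than the median, other choices of probe sets, quantile normalization again, housekeeping centring (18 genes), log2 of intensity plus 16, a replicate block, the methods' t-test (named for the whole paper, not the arrays) and leaving out each array.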

Additional observations from a re-analysis of the deposited data

How the results depend on the processing

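A fit without 1 array assumes that the lone array of a group varies like the pair of the other. No member passed under any of the 10 alternatives or with any array left out. The count over all genes, 2, was 89 with trended and robust moderation (48 higher, 41 lower), 54 without the dimmer genes (31 higher, 23 lower), 27 with log2 of intensity plus 16 (17 higher, 10 lower), 14 with the mean of probe sets, 6 with housekeeping centring, 3 with plain probe sets or a further quantile normalization, and 0 with all probe sets together, the methods' t-test, the replicate block or any array left out. The arrays share a replicate number only: the deviations of same-numbered arrays correlated at 0.077 across genes, and the replicate block called 0 genes. Housekeeping centring lowered all log2 fold changes by 0.035. The members lower without overlap, 11, were 5 with plain probe sets and 6 without the dimmer genes, both of which test fewer members. With single arrays left out they were 15 to 21, and those higher were 22 to 28. The shares of all genes under these settings were not counted. UBE2L6 passed without the dimmer genes (adjusted p = 0.040 from limma). The members' median ran from 0.02 to 0.06 over all settings.

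Of 36 genes with a printed fold change, 26 kept their sign throughout. Signs turned for B2M (0.043) and EIF2AK2 (0.14) with plain probe sets, IFNAR2 (-0.042), MAVS (-0.082) and XAF1 (-0.0061) with the mean of probe sets, SOCS3 with both (-0.24 and -0.013), IFIT5 (-0.24) and IFITM3 (0.0042) with quantile normalization, and ERAP2 (-0.0105) with housekeeping centring. With single arrays left out ERAP2 ran from -0.049 to 0.097, IFITM3 from -0.017 to 0.0154 and JAK1 from -0.054 to 0.175. Leaving out single arrays moved 18 of the 36 by over 1.5 times in a fit that kept the sign, among them TRIM22 (0.38 to 0.99), IFIT5 (0.10 to 0.57), IRF1 (0.32 to 0.74), TLR3 (0.33 to 0.70), TAPBP (0.10 to 0.29) and PSMB8 (-0.40 to -0.13). The mean of probe sets moved 13 so, log2 of intensity plus 16 moved 12, housekeeping centring 6 and plain probe sets 1. For B2M, EIF2AK2 and SOCS3 the plain probe set is not the one used in the main fit, and it is dim. The brightest probe set was chosen again after the further quantile normalization, and the IFIT5 value there is near the -0.25 of its second probe set. The other causes were not tested.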
